A study of Bos taurus with 27 samples.

Results

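The genes described here encode 10 components of Nodal, activin and bone morphogenetic protein (BMP) signalling, chosen by symbol from the 32637 genes of a bovine blastocyst RNA-sequencing series. They were the ligands NODAL, BMP4 and INHBA, the secreted inhibitors LEFTY2 and FST, the transcriptional targets ID1, ID2 and ID3, and the inhibitory proteins SMAD6 and SMAD7. All 10 had a row in the counts, and 8 of them reached an abundance of 1 CPM, a count scaled to a pool total of 1000000, in at least 12 pools, the limit the study set for analysis. NODAL and INHBA did not reach it. The filter retained 12310 genes in all.

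Each of the 27 samples was a pool of 2 expanding or expanded Bos taurus blastocysts of the best quality score. Oocytes from abattoir ovaries were matured and fertilised in vitro, and the embryos were cultured in vitro. The oocytes had been matured with preovulatory follicular fluid from follicles of greater or lesser maturity, and no untreated oocytes were part of the series. The labels do not give the follicle maturity or the fertilisation replicate of any pool, so treatments were not compared and values are over all pools. Pools necessarily shared treatments and replicates, since the study had fewer of these than pools. This was not separated from relations across pools here. The tests treat pools as independent, so p-values measure only the spread between these pools. A pool mixes all cells of its embryos, in which fewer cells of a type and less RNA per cell cannot be told apart.

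Ligands of this family bind paired type I and type II receptor kinases at the cell surface. Nodal and activin receptors phosphorylate SMAD2 and SMAD3, and BMP receptors phosphorylate SMAD1, SMAD5 and SMAD9. Both sets join SMAD4 and enter the nucleus, where ID genes are well-known BMP targets, while LEFTY2, SMAD6 and SMAD7 are induced by the pathway and act back to limit it. In mammalian embryos these signals are known for their part in epiblast maintenance and in the patterning that follows implantation.

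The total count of a pool ran from 10517606 to 44253564 around a median of 22293594. An abundance of 3 counts was worth 0.0678 CPM in the deepest pool and 0.285 CPM in the shallowest, a limit that covers counting error only. The lowest chi-square per degree of freedom over all pairs of pools was 23.9, so no library was held to be deposited more than once. Trophectoderm markers had a summed abundance of 16278 to 39877 CPM, and 8 of 8 were retained. The epiblast markers NANOG, SOX2, PRDM14 and KLF17 were retained and FGF4 was not. Of 7 hypoblast markers 4 were retained, while SOX17 and FOXA2 had a median of 0 CPM. Markers of cumulus and granulosa cells summed to 23.6 to 79.0 CPM (5 of 9 retained, with FOXL2 at 1 count in all pools together), and leukocyte markers to 1.83 to 17.6 CPM (2 of 6 retained).

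Libraries were primed from the poly(A) tail, and the CPM of a gene is used here to compare pools. Values of different genes stand side by side without a comparison of their levels. Among the ligands, NODAL (chromosome 28, 26636791 to 26643883 in ARS-UCD2.0) was all but undetected. A single count was found in pool 36, equal to 0.0644 CPM, and the other 26 pools had 0 counts. With 0 counts, the abundance that could have been missed was up to 0.285 CPM in the pool of lowest depth. NODAL is the ligand that LEFTY2 holds back, and LEFTY2 was counted in every pool except pool 38.

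INHBA, which encodes the beta A subunit of activin A (chromosome 4, 79279914 to 79304488), ran from 0.138 CPM in pool 9 to 3.74 CPM in pool 45 around a median of 0.761 CPM. It reached 1 CPM in 11 pools, 1 fewer than the limit required. Counts were between 2 and 70 per pool, so its low values carry wide counting error. After pool 45, INHBA was most abundant in pool 31 (2.28 CPM) and pool 5 (1.96 CPM).

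BMP4 (chromosome 10, 66518533 to 66525639) encodes a BMP ligand that passed the filter. Its abundance was 0.844 CPM in pool 6, had a median of 4.74 CPM and reached 12.1 CPM in pool 45, followed by pool 44 (10.1 CPM) and pool 21 (9.06 CPM). The highest pool was 14.3-fold above the lowest, and 26 pools reached 1 CPM. The biological coefficient of variation estimated by edgeR, which describes the spread between pools beyond counting error, was 0.512 for BMP4 and had a median of 0.337 over all retained genes.

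LEFTY2 (chromosome 16, 28910505 to 28913354), a secreted antagonist of Nodal, was the most variable of the 8 retained genes. It had 0 counts in pool 38, a median of 1.21 CPM and 12.7 CPM in pool 45, which was 10.5-fold above the median. Pool 41 (9.92 CPM) and pool 14 (9.44 CPM) came next, and 17 pools reached 1 CPM. Pool 45 alone held 17.4% of the summed CPM of LEFTY2, against a median of 6.47% for the highest pool of a retained gene. Its biological coefficient of variation of 1.00 was higher than that of 96.4% of retained genes.

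FST (chromosome 20, 25580143 to 25586639) encodes follistatin, which binds and neutralises activin. It was 0.0647 CPM, from 1 count, in pool 32, had a median of 1.26 CPM and reached 4.89 CPM in pool 14. Pools 23 (4.56 CPM) and 45 (3.74 CPM) followed. The coefficient of variation was 0.717, above 87.6% of retained genes, and 17 pools reached 1 CPM.

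**Figure D1:**
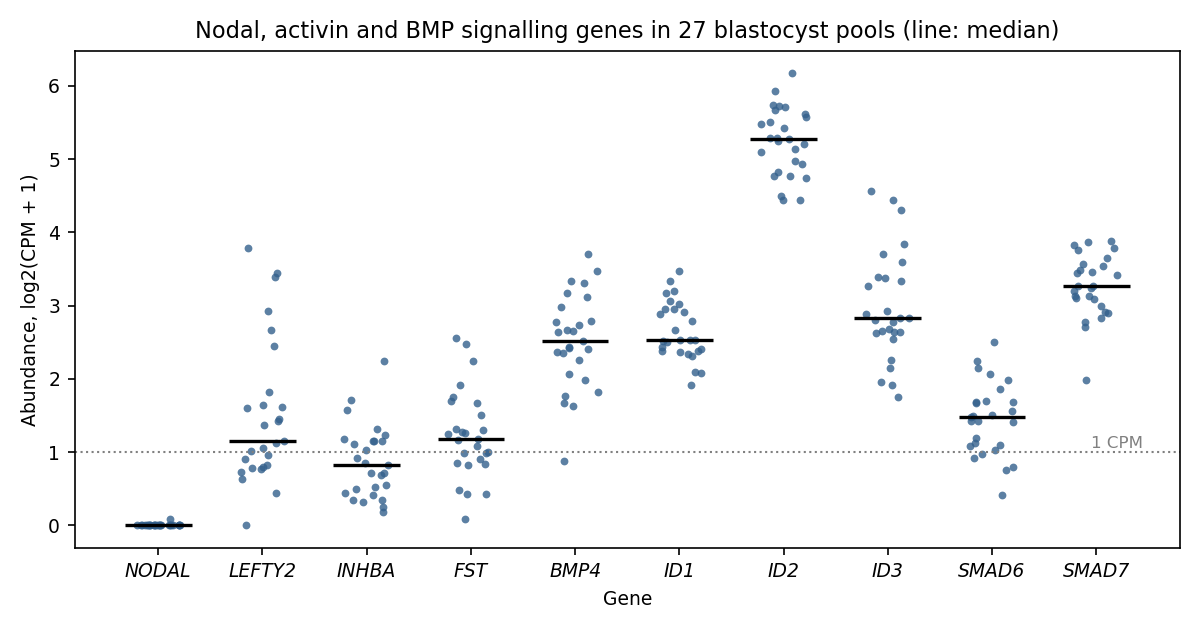
Abundance of the 10 genes on the log2(CPM + 1) scale, with 1 point per pool (27 pools), the median as a black line and 1 CPM as a dotted line. NODAL lies at 0 in 26 pools, LEFTY2 spreads up to 12.7 CPM above a median of 1.21 CPM, ID3 has 3 pools above all others, and SMAD7 has 1 low pool.

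The 3 ID genes encode proteins that bind E proteins and keep them from DNA. ID1 (chromosome 13, 61180673 to 61181832) was 2.76 CPM in pool 1, had a median of 4.78 CPM and reached 10.2 CPM in pool 14, with pool 32 (9.13 CPM) and pool 45 (8.20 CPM) next. ID2 (chromosome 11, 88604892 to 88607196) was 20.7 CPM in pool 46, had a median of 37.7 CPM and reached 71.1 CPM in pool 5, with pool 9 (59.9 CPM) and pool 45 (52.5 CPM) next. The extremes were 3.67-fold apart for ID1 and 3.44-fold apart for ID2. Their coefficients of variation of 0.364 and 0.335 lay near the median of 0.337 over all retained genes.

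ID3 (chromosome 2, 129292811 to 129298372) varied more. It was 2.38 CPM in pool 31 and had a median of 6.08 CPM, and it reached 22.7 CPM in pool 21, 20.8 CPM in pool 1 and 18.8 CPM in pool 25. The next pool, pool 28, had 13.3 CPM. The extremes were 9.54-fold apart and the coefficient of variation was 0.559. Pool 1, the second highest in ID3, was the lowest in ID1.

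No pair of ID genes was called as moving together over the pools by edgeR or DESeq2. Spearman's rho over the 27 pools was 0.28 between ID1 and ID2 (p = 0.149), -0.16 between ID1 and ID3 (p = 0.429) and -0.10 between ID2 and ID3 (p = 0.606), all from two-sided permutation tests. Pearson's r was 0.26 (p = 0.184), -0.28 (p = 0.156) and -0.09 (p = 0.651), and without the 2 pools farthest from the median of the first gene it was 0.40, -0.28 and -0.23. With TMM scaling the rho between ID1 and ID2 was 0.35. BMP4 had a rho of 0.14 with ID1 (p = 0.483), -0.15 with ID2 (p = 0.452) and 0.12 with ID3 (p = 0.563), and an r of 0.24 (p = 0.219), -0.20 (p = 0.325) and 0.15 (p = 0.462).

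SMAD6 (chromosome 10, 13544385 to 13622063) encodes an inhibitory SMAD that acts mainly on BMP receptors. It was 0.329 CPM in pool 21, had a median of 1.78 CPM and reached 4.66 CPM in pool 28, with pool 25 (3.74 CPM) and pool 5 (3.43 CPM) next. It reached 1 CPM in 22 pools, and its coefficient of variation was 0.567. Pool 21, lowest in SMAD6, was the highest in ID3. Over all 27 pools the 2 genes had a rho of 0.09 (p = 0.638) and an r of 0.10 (p = 0.635, permutation tests).

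SMAD7 (chromosome 24, 48598698 to 48629007) encodes the inhibitory SMAD that acts on both branches. It was 2.96 CPM in pool 9, had a median of 8.59 CPM and reached 13.8 CPM in pool 38, with pool 35 (13.6 CPM) and pool 25 (13.2 CPM) close behind. Pool 9 stood below the rest, since the next lowest pool had 5.52 CPM. The coefficient of variation of 0.325 was the lowest of the 8 retained genes. SMAD6 and SMAD7 had a rho of -0.02 (p = 0.923) and an r of 0.09 (p = 0.649).

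Some pools were high in many of these genes at once. Pool 45 was among the 3 highest for LEFTY2, FST, BMP4, ID1 and ID2, which is 5 of the 8 retained genes, and it also had the most INHBA. Its total count of 13895833 was below the median. Pool 14 was among the 3 highest for LEFTY2, FST and ID1, and pool 25 for ID3, SMAD6 and SMAD7. Pools 14 and 25 lay above the median for 8 of 8. These pools were picked out after ranking all 27. The same counts were not made over all retained genes, so whether they are particular to these 8 was not tested.

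Whether the genes moved together over pools was tested for all 28 pairs of the 8 retained genes. For each gene, edgeR's quasi-likelihood test was run on all retained genes with log2(CPM + 1) of that gene as the covariate. A pair was called where both fits had a Benjamini-Hochberg adjusted p of 0.05 or less with the same sign. No pair was called (0 of 28), 2 pairs had an unadjusted p of 0.05 or less in both fits, and DESeq2 called 0. The Spearman correlation was between -0.41 and 0.47 with a median of 0.10, and 20 pairs were positive.

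By Spearman's rho the highest correlation was between LEFTY2 and ID2, at 0.47 (p = 0.0136) and an r of 0.43 (p = 0.0240), or 0.38 without the 2 pools farthest from the LEFTY2 median. The slope of LEFTY2 on ID2 was 1.95 ± 0.65 (SE) on the log2 scale per log2 unit, with an edgeR adjusted p of 0.185. By Pearson's r LEFTY2 was higher with ID1, at 0.46 (p = 0.0165, rho 0.33), and r was 0.36 without the 2 farthest pools. The slope of LEFTY2 on ID1 was 2.19 ± 0.64 (SE), with an edgeR adjusted p of 0.575. The lowest rho was between ID2 and SMAD7, at -0.41 (p = 0.0328) and an r of -0.46 (p = 0.0166). Without the 2 pools farthest from the ID2 median r was also -0.46, but pool 9, the lowest in SMAD7, was not among those 2. With TMM scaling the rho was -0.36 and the r was -0.43. ID2 had a slope of -0.55 ± 0.19 (SE) on SMAD7, with an edgeR adjusted p of 0.101. Permutation p-values here are not adjusted, and none of these relations passed the test across all genes.

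**Figure D2:**
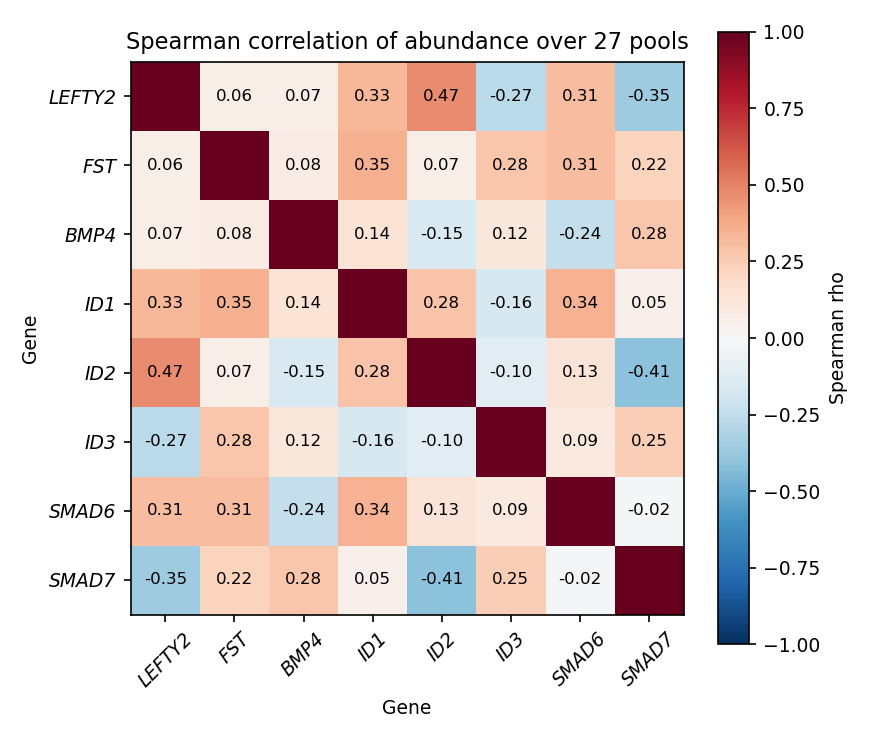
Spearman's rho of log2(CPM + 1) over 27 pools for each pair of the 8 retained genes, on a colour scale from -1 to 1. Values lie between -0.41 (ID2 with SMAD7) and 0.47 (LEFTY2 with ID2), and none of the 28 pairs was called by edgeR.

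With ID3 as the covariate, 47 of the other retained genes were called (0.382%), and the slopes of all 47 were positive. The gene nearest to it in pattern was BTG4, an adaptor of the mRNA deadenylation that clears maternal transcripts, with a rho of 0.889 and a slope of 1.38 ± 0.15 (SE) on the log2 scale per log2 unit of ID3 (edgeR adjusted p = 7.21e-07). MOS, the kinase that keeps the egg arrested in meiosis, came next with a rho of 0.886 and a slope of 1.91 ± 0.20 (SE, edgeR adjusted p = 7.21e-07). The third was LOC100336984, with a rho of 0.877 and an edgeR adjusted p of 5.4e-06. Pearson's r without the 2 pools farthest from the ID3 median was 0.835 for BTG4 and 0.757 for MOS.

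BTG4 ran from 7.05 CPM in pool 45 to 171 CPM in pool 1, around a median of 31.7 CPM, and it was 119 CPM in pool 21 and 88.6 CPM in pool 25. MOS ran from 0.841 CPM in pool 32 to 70.7 CPM in pool 1, around a median of 4.50 CPM, with 54.8 CPM in pool 21 and 10.6 CPM in pool 25. Pools 1 and 21 were thus the 2 highest for both genes as for ID3, while pool 25 was not the third highest for either BTG4 or MOS.

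Other genes called with ID3, named after their values were seen, are known for expression in the oocyte: ZP2 and ZP4 of the zona pellucida, the oocyte chromatin proteins NPM2 and H1-8, KHDC3L of the subcortical maternal complex, the cell cycle kinase WEE2, the RNA-binding proteins CPEB1, ZAR1L and PABPN1L, and the importin KPNA7. Their rho with ID3 was 0.788 for ZP2, 0.665 for ZP4, 0.799 for NPM2, 0.836 for H1-8, 0.872 for KHDC3L and 0.853 for KPNA7. They were not tested as a group. LEF1, a transcription factor of Wnt signalling (rho 0.701), and FOXO1, a factor restrained by insulin signalling (rho 0.626), were also among the 47.

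A pair of genes of the wider pathway was called with ID3. GDF9, a ligand of this family secreted by the oocyte, had a slope of 1.04 ± 0.19 (SE, edgeR adjusted p = 0.00197), and it was 13.3 CPM in pool 1, followed by 4.09 CPM in pool 28, with a median of 1.51 CPM. MSX1, a homeobox gene induced by BMP, had a slope of 0.54 ± 0.10 (SE, edgeR adjusted p = 0.00223). It was 26.6 CPM in pool 1, 18.8 CPM in pool 21 and 16.8 CPM in pool 25, its 3 highest pools, and had a median of 9.15 CPM and a lowest value of 4.30 CPM in pool 42.

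The calls with ID3 were little altered by single pools. Between 36 and 51 genes were called when each pool was left out in turn, and 29 of the 47 were called in all 27 of these fits. DESeq2 also called all 47. Without pools 1, 21 and 25 together, which was tried after seeing the data, 13 genes were called, all of them among the 47, and GDF9 and MSX1 were not (slopes of 0.92 and 0.32). The cumulus and granulosa marker level was the mean log2(CPM + 1) of the 5 retained markers, FSHR, CYP19A1, CYP11A1, STAR and TNFAIP6. PTX3, HAS2, AMH and FOXL2 were not retained. Whether the 5 markers came from cumulus or granulosa cells was not tested. ID3 had a rho of 0.11 (p = 0.568) and an r of -0.0029 (p = 0.989) with that level. With the total count it had a rho of -0.12 (p = 0.537) and an r of -0.22 (p = 0.265).

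**Figure D3:**
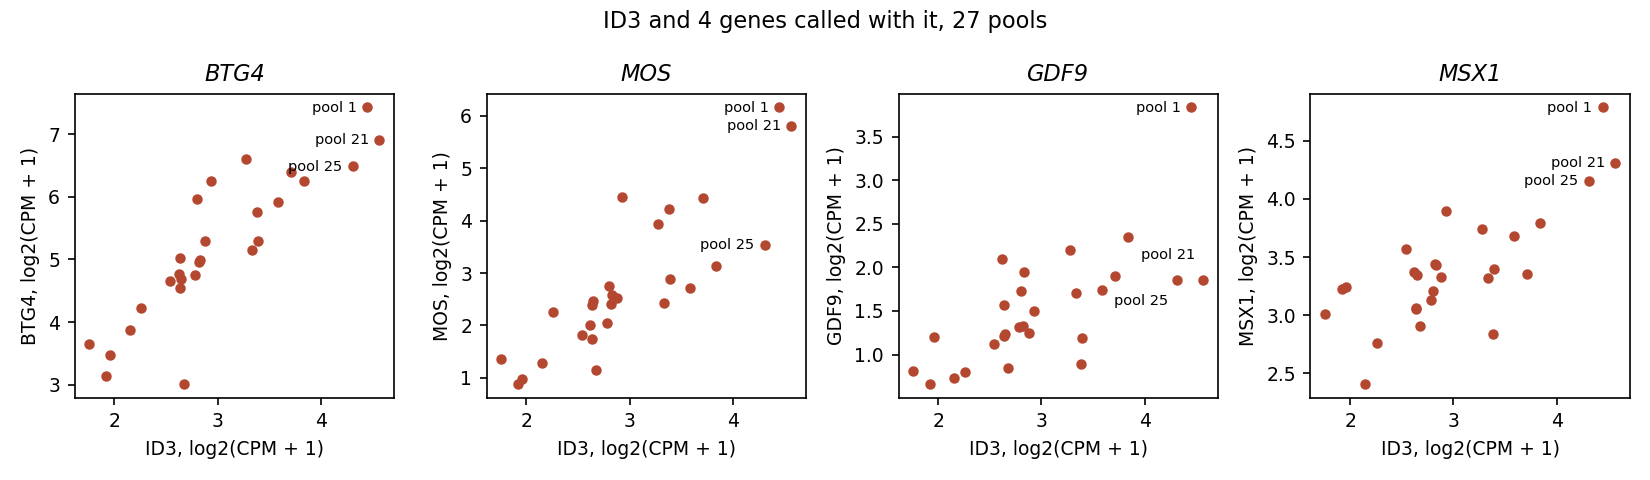
Abundance of BTG4, MOS, GDF9 and MSX1 against ID3 in 27 pools, both axes on the log2(CPM + 1) scale, 1 point per pool, with the 3 pools highest in ID3 named. BTG4 and MOS rise with ID3 over the whole range, while for GDF9 pool 1 stands apart at 13.3 CPM.

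ID2 was accompanied by 26 genes (0.211%), of which 21 had a positive slope and 5 a negative one. The nearest were HSD17B12, an enzyme of fatty acid elongation (rho 0.730, slope 0.55 ± 0.09 SE, edgeR adjusted p = 0.0105), OARD1 (rho 0.723) and ERGIC2 (rho 0.708). Among the 26, named after their values were seen, were the glycolytic and lactate genes PGK1 and LDHB, the monocarboxylate transporters SLC16A1 and SLC16A7, and the sterol synthesis genes MSMO1 and HSD17B7, all with positive slopes. GLDC of the glycine cleavage system and the myosin MYH9 had negative slopes, -1.57 for GLDC and -0.56 for MYH9. HSD17B12 was called in all 27 fits that left out 1 pool, and no other gene of the 26 was. Without pool 9, pool 35 or pool 44 only 1 gene was called, and without pool 12 there were 61. Slopes with a pool left out were looked at only for the nearest genes, which were chosen for the highest rho over all pools. They cannot stand for the other called genes. The slope of OARD1 moved less than its call. OARD1 had a slope of 0.41 ± 0.09 (SE) over all pools, and 0.42 without pool 9, 0.40 without pool 35 and 0.40 without pool 44, where its adjusted p was between 0.0637 and 0.0938. With the total count in the model 6 genes were called, without OARD1 (slope 0.42, adjusted p = 0.0515).

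SMAD7 was accompanied by 270 genes (2.19%), 123 with a positive and 147 with a negative slope. Nearest in pattern were SF3B4, a splicing factor (rho 0.810, edgeR adjusted p = 0.00555), SOX15, a transcription factor (rho 0.806, edgeR adjusted p = 0.00254), and TJP1 of tight junctions (rho 0.791, edgeR adjusted p = 0.0487). Named after their values were seen, SALL4, LAMC1 and ACTN1 had positive slopes and RAN, NPM1 and PSMA3 negative ones. TJP1 was called in 5 of the 27 fits that left out 1 pool, and not with RLE scaling, the total count in the model or a pseudocount of 0.1. Without pool 9, in which SMAD7 was lowest, edgeR called 0 genes (1412 with a p of 0.05 or less before adjustment), and without any other pool between 181 and 350. Slopes without pool 9 were looked at only for the nearest genes, and those of SF3B4 and SOX15 were about as large, with wider errors. That of TJP1 is not given here. The nearest genes were chosen for the highest rho over all pools, pool 9 included, so they cannot stand for the other called genes. Some called genes had almost no rank relation with SMAD7, such as UBD (slope -1.10, rho -0.01). SF3B4 had a slope of 0.55 ± 0.10 (SE) over all pools and 0.59 ± 0.13 without pool 9, where its adjusted p was 0.107. SOX15 had 0.89 ± 0.14 over all pools and 0.90 ± 0.17 without pool 9, also with an adjusted p of 0.107.

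FST was accompanied by 2 genes (0.0162%). POSTN, a matrix protein, had a slope of 2.47 ± 0.39 (SE, edgeR adjusted p = 0.0066) and a rho of 0.834, and STRA6, a retinol transporter, had a slope of 2.16 ± 0.37 (SE, edgeR adjusted p = 0.0138) and a rho of 0.784. PLAT, the tissue plasminogen activator, followed at 0.742 without being called. POSTN and STRA6 had low medians of 1.72 and 1.13 CPM. Both were highest in pool 12 (22.2 and 12.2 CPM), where FST was 2.23 CPM, and next in pool 14 (13.2 and 9.40 CPM). Without pool 14, the highest in FST, edgeR called 0 genes (548 with a p of 0.05 or less before adjustment). The slopes without that pool were 2.59 ± 0.46 (SE, adjusted p = 0.0593) for POSTN and 2.18 ± 0.46 (SE, adjusted p = 0.323) for STRA6, about as large as over all pools.

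For LEFTY2, BMP4, ID1 and SMAD6 edgeR called 0 genes (0%). Unadjusted p-values of 0.05 or less were found for 828, 557, 587 and 1625 genes, and DESeq2 called 12, 0, 6 and 143. The nearest genes in pattern, not called, were CERS4 (0.684), GIPC2 (0.676) and DNM3 (0.662) for LEFTY2, ARHGAP5 (0.697), SRCAP (0.666) and FNDC3B (0.650) for BMP4, KCNG3 (0.750), LMO2 (0.701) and SERPINA5 (0.651) for ID1, and SORL1 (0.789), UCK1 (0.724) and ABHD12 (0.720) for SMAD6, each with its rho over 27 pools. The count for SMAD6 stayed at 0 in 18 of the 27 fits that left out 1 pool. Among the other fits it was 78 without pool 5 and 7 without pool 6.

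Abundance of the 8 retained genes was next set against the level of lineage markers. This was the mean log2(CPM + 1) of the retained markers of each list, in units of 1 SD over the pools. It rested on 4 epiblast, 4 hypoblast (GATA6, PDGFRA, HNF4A and RSPO3) and 8 trophectoderm markers. With the epiblast marker level edgeR called 0 of the 8 (3 at an unadjusted p of 0.05 or less, 0 by DESeq2), and 0% of all genes tested were called. Before adjustment 862 of 12306 genes had a p of 0.05 or less. Of the 8, ID1 had the lowest p, with a slope of 0.31 ± 0.09 (SE) on the log2 scale per SD and an edgeR adjusted p of 0.333. Its rho with the epiblast marker level was 0.65 (p = 0.00034) and its r was 0.63 (p = 0.00037), or 0.59 without the 2 farthest pools. LEFTY2 had a slope of 0.84 ± 0.29 (SE, edgeR adjusted p = 0.471) and ID3 a slope of -0.33 ± 0.14 (SE, edgeR adjusted p = 0.637). The permutation p-values come from 48 relations of a gene with a marker level or total count and are not adjusted.

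With the trophectoderm marker level 7.37% of genes were called, and again 0 of the 8 by edgeR (3 at an unadjusted p of 0.05 or less, 0 by DESeq2). Before adjustment 2985 of 12302 genes had a p of 0.05 or less. SMAD7 came nearest, with a slope of 0.23 ± 0.08 (SE, edgeR adjusted p = 0.0891), then SMAD6 with 0.36 ± 0.15 (SE, adjusted p = 0.121) and FST with 0.42 ± 0.20 (SE, adjusted p = 0.196). The Spearman correlation with the trophectoderm marker level was 0.45 for SMAD7 (p = 0.0183), 0.49 for SMAD6 (p = 0.0117) and 0.26 for FST (p = 0.190). Pearson's r was 0.49 (p = 0.00931), 0.48 (p = 0.0121) and 0.41 (p = 0.0319), and without the 2 farthest pools it was 0.31, 0.57 and 0.19. With the hypoblast marker level 0.0569% of genes were called and 0 of the 8 by edgeR (1 unadjusted, SMAD7, and 0 by DESeq2). A p of 0.05 or less before adjustment was found for 1773 of 12306 genes. SMAD7 had a rho of 0.37 (p = 0.0584) and an r of 0.56 (p = 0.00420) with the hypoblast marker level, and r was 0.22 without the 2 farthest pools. No call was gained when any single pool was left out, with a lowest adjusted p of 0.0514.

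**Figure D4:**
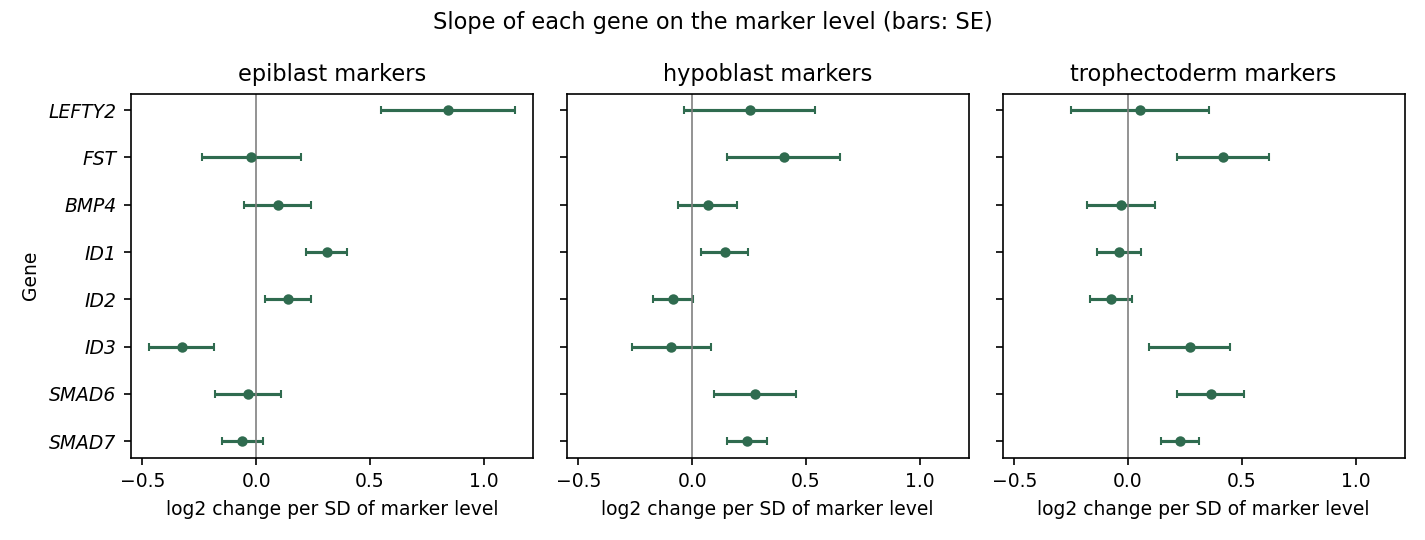
Slope of each of the 8 retained genes on the epiblast, hypoblast and trophectoderm marker levels, in log2 units per SD of the marker level over 27 pools (points) with its SE (bars). ID1 and LEFTY2 lie above 0 for epiblast markers and SMAD7 above 0 for hypoblast and trophectoderm markers, and none was called.

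For the total count of the pool, SMAD6 was the only 1 of the 8 genes with an unadjusted p of 0.05 or less. Its slope on the log2 total count was -0.36 ± 0.15 (SE) per SD, with a rho of -0.46 (p = 0.0165) and an r of -0.49 (p = 0.00971), or -0.37 without the 2 farthest pools. With the total count edgeR called 0 of the 8 genes (1 unadjusted, 0 by DESeq2) and 0% of all genes. The leukocyte marker level rested on only 2 retained markers, PTPRC and CD14. FST had a rho of -0.39 with it (p = 0.0476) and an r of -0.45 (p = 0.0176), or -0.37 without the 2 farthest pools. The part of these markers in the FST values was not tested.

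The wider pathway was described by a list of 55 further genes, of which 52 had a row and 31 were retained. CER1 and GDF1 had 0 counts in all pools. Among ligands 5 of 13 were retained, among them GDF3 (median 9.47 CPM, range 1.94 to 23.1) and BMP2 (2.73 CPM, 0.0652 to 6.23). The Nodal co-receptor CRIPTO had a median of 1.75 CPM and reached 17.1 CPM, and the convertase FURIN, which matures the ligands, had a median of 4.75 CPM. PCSK6, another convertase, had a median of 0.141 CPM and was not retained.

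The receptors and SMADs named here were counted in all pools. The type I receptors TGFBR1 and BMPR1A had medians of 58.8 and 17.99 CPM, and the type II receptors ACVR2B and ACVR2A had medians of 26.7 and 9.65 CPM. SMAD2 (47.3 CPM), SMAD1 (27.6 CPM) and the common partner SMAD4 (56.5 CPM) were present together. SMAD4 was between 22.0 and 76.0 CPM. The nuclear corepressors TGIF1 and SKIL had medians of 26.9 and 9.60 CPM. Of the nuclear partners 3 of 5 were retained, without FOXH1 (0.523 CPM) and EOMES (0.0672 CPM). The type I receptor ACVR1B had a median of 1.23 CPM, and ACVR1C had 0 counts in 26 pools. ACVR1C, BMPR1B, TGFBR2 and SMAD9 were not retained.

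Of the inhibitors outside the cell, TWSG1 (5.65 CPM) and FSTL3 (4.37 CPM) were retained, 2 of 8. The decoy receptor BAMBI had a median of 22.1 CPM and the ubiquitin ligase SMURF2 one of 11.3 CPM. Of the further targets 4 of 6 were retained, among them MSX2 (40.1 CPM) and MSX1 (9.15 CPM).

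Of the 31 retained pathway genes, 3 rose with the trophectoderm marker level, where 7.37% of all genes were called. These were FURIN (slope 0.56 ± 0.12 SE, edgeR adjusted p = 0.00613), TGIF1 (0.20, adjusted p = 0.027) and FSTL3 (0.43, adjusted p = 0.0346). With ID3 the 2 described above were called, and with each other measure 0 of 31.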

How the data were processed

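Counts of 27 pools of 2 bovine blastocysts were used. The authors amplified cDNA from the 3′ end by SMART-Seq v4 (3′ DE version), trimmed reads with fastp, mapped them with STAR to ARS-UCD2.0 and counted them on genes with featureCounts, and the deposited raw counts are neither normalized nor filtered. Tool versions are not given in the sources used here. Reads from a transcript that ends outside its annotated 3′ end would not be counted.

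All 27 columns were matched to pools by number. The treatment of a pool was not assigned. CPM was calculated from column totals, and a gene was retained where 12 or more pools reached 1 CPM. Positions were taken from RefSeq for ARS-UCD2.0, in which 12265 of 12310 retained genes and 10 of 10 members matched by symbol. No sequences are printed. TDGF1 was matched as CRIPTO by synonym.

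Relations across pools were tested with edgeR 4.0.16 (R 4.3.3; TMM, quasi-likelihood F test, Benjamini-Hochberg over all retained genes of a fit other than the markers or gene used as covariate), with DESeq2 1.42.0 as an alternative, and with Pearson and Spearman correlations by 100000 permutations, two-sided (scipy 1.17.1). The 3 genes with the highest rho were named for each member, and the 2 with the highest median in each pathway role. On simulated counts of 12310 genes with a slope on the epiblast marker level, 98 of 100 genes with a slope of 0.5 and 100 of 100 with a slope of 1 were recovered, with 7 false calls. The simulation gave every gene the same dispersion, with a spread below that of each retained member. It does not show how often slopes would be recovered for genes as variable as LEFTY2 (biological coefficient of variation 1.00) or FST (0.717). Members and lists were chosen with earlier results of these data known. Alternatives were the filter, normalization, test, covariates, pseudocount and leaving out each pool, and those on counts of genes called with a member were added after seeing the data.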

Additional observations from a re-analysis of the deposited data

How the results depend on the processing

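The 0 calls among the 8 genes for each marker level and total count, and the 0 of 28 pairs, were the same under every alternative run, including each pool left out. At a minimum of 2 CPM 5 of the 10 genes were retained. Counts of genes called with a single gene moved. Testing all genes with a count gave 455 for LEFTY2, 486 for FST, 388 for BMP4, 449 for ID1, 808 for ID2, 672 for ID3, 634 for SMAD6 and 930 for SMAD7. DESeq2 gave 12 for LEFTY2, 5 for FST, 6 for ID1, 130 for ID2, 143 for SMAD6 and 588 for SMAD7. With the total count in the model there were 6 for ID2 and 19 for SMAD6, and with RLE scaling 2 for SMAD6. Without the 3 pools highest in ID3 there were 13 for ID3. Leaving out single pools gave 0 to 3 for FST, 0 to 1 for ID1, 1 to 61 for ID2, 0 to 2 for LEFTY2, 0 to 78 for SMAD6, 0 to 350 for SMAD7 and 36 to 51 for ID3, and 0 for BMP4 in each. The cause was not tested, and slopes of OARD1, SF3B4, SOX15, POSTN and STRA6 beside lost calls are given above. The ID2 count moved beyond 1.5-fold without pools 5, 6, 9, 12, 15, 23, 25, 26, 28, 32, 33, 35, 36, 38, 42, 44, 45 or 46. OARD1 lost its call with ID2 when total count was in the model, and TJP1 its call with SMAD7 under RLE scaling, total count in the model or a pseudocount of 0.1. LEFTY2, INHBA, FST and SMAD6 had few counts in many pools, which limits their precision. No paired analysis was possible because the labels give no groups or replicate numbers.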

Other observations

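BMP15, the oocyte-secreted ligand that pairs with GDF9, was not retained and was looked at after GDF9 was seen among the genes called with ID3. It was 13.6 CPM in pool 1, 5.59 CPM in pool 21 and 0.958 CPM in pool 25, and 2.70 CPM in pool 24. Its median over all 27 pools was 0.439 CPM, and pool 32 had 0 counts. No test was run on it.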
